A study of Homo sapiens with 13 samples.

Results

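The genes that encode the proteins of the cytosolic ribosome were followed across CUT&RUN peak lists of 3 histone marks and 3 chromatin factors. Members were taken by symbol from the RefSeq annotation of GRCh38.p14: coding genes on chromosomes 1 to 22 and X named RPL or RPS with a number, together with RPLP0, RPLP1, RPLP2 and RPSA, leaving out RPS6 kinase genes and pseudogenes. This gave 82 genes of 19970 coding genes, of which 47 encode proteins of the large (60S) subunit, 32 encode proteins of the small (40S) subunit and 3 form the stalk of the large subunit. Among them were 5 variant copies, RPL3L, RPL10L, RPL39L, RPL36AL and RPS27L. The choice used names only and no measured value, though it was made with earlier results of these data known.

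The cells were PANC1, an established line from a human pancreatic ductal carcinoma, stably expressing BRG1, and the sample titles read "BRG oe" in every case. All libraries came from these cells, so the series holds 1 condition and no comparison with PANC1 lacking the added BRG1. CUT&RUN cuts and releases DNA beside an antibody-bound protein. Duplicate libraries were made for trimethylated histone H3 lysine 4 (H3K4me3), acetylated lysine 27 (H3K27ac) and monomethylated lysine 4 (H3K4me1), for BRG1, the ATPase of BAF-type chromatin remodelling complexes, for SMARCC1, a core subunit of those complexes, and for NRF2, the transcription factor of the antioxidant response. Cells were lightly crosslinked per the labels, and the labels do not say whether the 2 replicates came from separate cultures. An IgG library was not used here.

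Ribosomal protein genes are transcribed by RNA polymerase II at high rates in growing cells, and their products are needed in matched amounts. Most of their transcripts begin with a C followed by a run of pyrimidines, the terminal oligopyrimidine (TOP) tract, through which growth signalling by mTOR and LARP1 controls their translation. H3K4me3 is typical of active promoters, H3K27ac of active promoters and enhancers, and H3K4me1 of enhancers and promoter flanks.

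Promoters of members singled out in the results are shown first. RefSeq's promoter table of GRCh38.p14 listed a transcription start for 65 of the 82 genes. Each line below runs from 80 bases before the start to the 20 transcribed bases that begin at it, and capitals mark the C and unbroken run of pyrimidines at the start, where there was one of at least 5 bases. RPL11, RPS10, RPS3, RPL7A and RPL28 are shown because they had the highest H3K4me3 enrichment of all members. RPL14, RPL34, RPS19 and RPL18 are shown because they carried H3K4me3 without H3K27ac in both replicates. RPL10L carried no region of any target, and RPS27L and RPL39 had BRG1 peaks in both replicates. The shared BRG1 region of RPS27L lay far inside the gene, outside the printed bases. That of RPL39 ran upstream from the first printed base.
RPL11 (chr1:23691726-23691825, plus strand, the second of 2 listed starts): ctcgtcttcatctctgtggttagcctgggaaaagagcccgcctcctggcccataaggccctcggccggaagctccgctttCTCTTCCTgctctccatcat
RPS10 (chr6:34426050-34426149, minus strand): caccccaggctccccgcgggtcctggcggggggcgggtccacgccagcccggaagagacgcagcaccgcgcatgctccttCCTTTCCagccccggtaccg
RPS3 (chr11:75399438-75399537, plus strand): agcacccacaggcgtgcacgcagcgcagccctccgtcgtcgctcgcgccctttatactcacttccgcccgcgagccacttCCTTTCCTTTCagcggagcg
RPL7A (chr9:133348138-133348237, plus strand): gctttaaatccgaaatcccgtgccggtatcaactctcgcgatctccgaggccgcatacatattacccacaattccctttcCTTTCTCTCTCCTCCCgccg
RPL28 (chr19:55385852-55385951, plus strand): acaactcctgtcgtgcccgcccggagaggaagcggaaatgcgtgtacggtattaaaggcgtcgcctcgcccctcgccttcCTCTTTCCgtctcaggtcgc
RPL14 (chr3:40457259-40457358, plus strand): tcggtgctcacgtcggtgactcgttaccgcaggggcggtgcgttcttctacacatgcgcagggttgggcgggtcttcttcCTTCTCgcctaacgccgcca
RPL34 (chr4:108620496-108620595, plus strand): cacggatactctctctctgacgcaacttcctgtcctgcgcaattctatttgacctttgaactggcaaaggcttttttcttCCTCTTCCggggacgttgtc
RPS19 (chr19:41860175-41860274, plus strand): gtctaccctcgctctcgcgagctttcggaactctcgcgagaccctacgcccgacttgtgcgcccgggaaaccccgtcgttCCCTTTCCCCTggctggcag
RPL18 (chr19:48619159-48619258, minus strand): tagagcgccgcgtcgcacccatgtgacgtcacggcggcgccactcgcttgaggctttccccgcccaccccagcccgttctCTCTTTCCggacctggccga
RPL10L (chr14:46651762-46651861, minus strand): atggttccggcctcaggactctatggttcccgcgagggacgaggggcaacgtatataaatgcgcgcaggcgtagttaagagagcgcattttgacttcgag
RPS27L (chr15:63157458-63157557, minus strand): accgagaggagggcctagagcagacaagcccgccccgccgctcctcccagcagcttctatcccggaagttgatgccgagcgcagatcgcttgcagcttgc
RPL39 (chrX:119791611-119791710, minus strand): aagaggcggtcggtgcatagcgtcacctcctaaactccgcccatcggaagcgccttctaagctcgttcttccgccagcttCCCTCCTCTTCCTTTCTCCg
All lines but those of RPL10L and RPS27L held such a tract, of 6 bases at RPL14 to 19 bases at RPL39. Where a gene had several listed starts, the first with a tract was printed, so the choice favoured tracts. The 5′-most start of RPL11 had none. With that choice, the tract was present both in the printed promoters with the most H3K4me3 and in those without H3K27ac.

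Over all 65 genes with a listed start, 42 (64.6%) began with a C and at least 5 pyrimidines at their 5′-most start, and 46 (70.8%) did so at any listed start, against 4.59% and 6.24% of the 15811 coding genes with a start. Genes with the tract at their 5′-most start had a median H3K4me3 fold enrichment of 26.1 (42 genes). Those without it there, RPL11 among them, had 24.8 (22 genes with a region). The tract was thus far more frequent in the family than elsewhere, while the family's H3K4me3 medians with and without it were close.

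Other short sequences were counted in the promoter window of 250 bases before to 50 bases after the start, on both strands, by exact letters. The palindrome TCTCGCGA, which ZBTB33 is known to recognise, was held by 11 of 65 members (16.9%), among them RPL7A, RPS19, RPS6 and RPL4, against 1.74% of coding genes. The ETS-type sequence CCGGAAG, bound by GABP, was held by 22 (33.8%), RPL11, RPS10 and RPS27L included, against 14.1%. The YY1 sequence AAGATGG was held by 8 (12.3%) against 6.36%. The SP1 box GGGCGG (56.9% of members against 58.3% of coding genes) and the TATA box TATAAA (9.23% against 9.75%) were about as frequent as elsewhere. The E-box CACGTG of MYC (4.62% against 8.82%), the AP-1 sequence TGANTCA (3.08% against 5.70%) and the antioxidant response element TGACNNNGC through which NRF2 binds (9.23% against 14.4%) were held by a smaller share of members than of coding genes. The last pair can overlap each other on the DNA. A match is a description of letters in this window and does not show that a factor bound there. RPL39 was among the 6 members with the NRF2 letters, with RPL13, RPS15, RPS24, RPS25 and RPL10L.

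The peak lists held 18789 and 17752 peaks for H3K4me3, 32499 and 32294 for H3K27ac, 37283 and 34234 for H3K4me1, 3213 and 6610 for BRG1, 1538 and 919 for NRF2, and 600 and 572 for SMARCC1 in replicates 1 and 2. Read depth is unknown, so a missing peak cannot be told apart from a shallow library. The BRG1 list of replicate 2 was the longer of the pair, and no SMARCC1 peak in either list reached a −log10 q of 1.3. Of 7 ductal epithelial markers, 5 carried H3K4me3 (KRT7 and CDH1 did not), as did 3 of 3 markers of the mesenchymal state, whereas no acinar, endocrine, haematopoietic, endothelial, muscle or testis marker did. EPCAM was counted on a weak region of 475 bp, with fold enrichment of 2.85 and 5.55. H3K27ac lay at 5 ductal markers (not EPCAM or CDH1), at 3 of 3 mesenchymal ones and, of the other lists, at haematopoietic PTPRC alone. A region was counted for a gene where merged peaks of both replicates met the gene's span or the 1 kb beyond either end, and the fold enrichment quoted is the authors' peak value, a linear ratio at the peak summit, taken as the highest in that window.

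Nearly every ribosomal protein gene carried both promoter marks, and the enhancer mark was rarer than at other genes, while factor regions were few, as they were among all coding genes. H3K4me3 was present at 81 of 82 members (98.8%), against 62.4% of all coding genes and 44.7% of the 5655 coding genes whose span is at most 10 kb. H3K27ac was present at 76 (92.7%), against 50.2% and 33.4%, a count that fell to 48 when only peaks of −log10 q 1.3 or more were merged and to 8 at 5. H3K4me1 was present at 2 (2.44%), RPL22 and RPS15A, against 26.0% and 7.14%. BRG1 was present at 4 (4.88%), against 4.36% and 0.371%. NRF2 was present at none, against 0.626% and 0.195%, and SMARCC1 at 1 (1.22%), against 0.681% and 0.177%. The short-gene background is given because member genes are compact: their median span was 5013 bp, against 24190 bp for coding genes, and 71 of 82 (86.6%) spanned at most 10 kb, against 28.3%. The shares with H3K4me3 and H3K27ac stood far above both backgrounds, and that with H3K4me1 lay below both. The factor shares were close to those of all coding genes. Those of BRG1 and SMARCC1 stood above the short-gene shares, but rested on 4 members and 1. Of the 71 members spanning at most 10 kb, 2 had BRG1, RPS27L and RPL39, against 0.371% of coding genes with such a span.

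**Figure D1:**
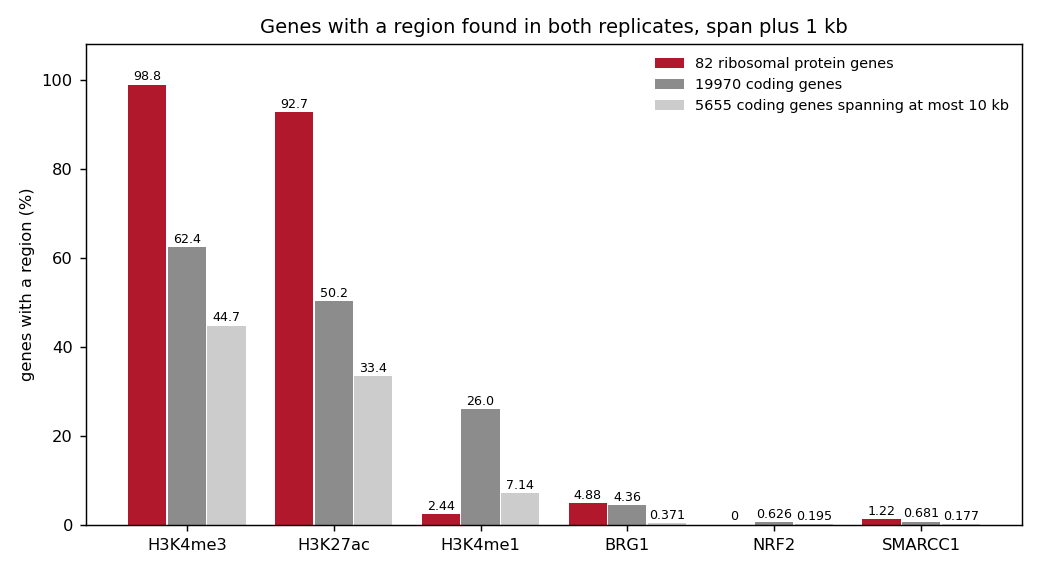
Share of genes (%) with a region found in both replicates within the gene span plus 1 kb, for each of the 6 targets. Red bars are the 82 ribosomal protein genes, dark grey bars the 19970 coding genes and light grey bars the 5655 coding genes spanning at most 10 kb. H3K4me3 stood at 98.8% of members and H3K27ac at 92.7%, while H3K4me1 stood at 2.44% against 26.0% of coding genes. The H3K27ac count of 76 was 48 with peaks of −log10 q 1.3 or more. With some peak past that limit in each library, overlapping or not, the shares were 61.0% of members and 39.0% of coding genes.

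The H3K4me3 regions of the family were wide. The widest region of each marked member had a median width of 2960 bp (range 1228 to 6920 bp, 81 genes), against 1802 bp for coding genes and 1755 bp for short ones, and 73 of 81 were wider than the coding median. A region over 2 kb wide was present at 69 members (84.1%), against 26.0% of coding genes and 17.9% of short ones. Single libraries gave the same picture without any merging, with a median widest peak of 2729 bp in replicate 1 and 2675 bp in replicate 2 at members, against 1623 and 1665 bp at coding genes.

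The widest regions often reached into a neighbouring gene. RPS2, which encodes a protein at the entry of the mRNA channel, had the widest merged region, 6920 bp. Its width came from replicate 2, with 1 peak of 6903 bp. Replicate 1 had 2 peaks there, the wider of 4089 bp, less than the 4576 bp of RPL7 in that library. The merged region covered the whole span of RPS2 and also that of NDUFB10. RPL7 followed with 4576 bp, RPL36AL with 4520 bp, RPL39 with 4452 bp and RPL27A with 4432 bp. Of the 81 members, 27 (33.3%) had another coding gene's end inside the widest region, as had 23.4% of coding genes with H3K4me3. These neighbours included separate genes such as MED22 beside RPL7A and TRAPPC4 beside RPS25, and readthrough genes such as RPS10-NUDT3. Without such a neighbour the members' median width was 2729 bp (54 genes), against 1648 bp for 9535 coding genes. The width was thus above that of other genes with and without a neighbour's end in the region. RPL39L (1228 bp), RPL19 (1445 bp), RPL27 (1536 bp) and RPS27 (1576 bp) were among those with the narrowest regions. Just above the 2 kb limit lay RPS23 (2033 bp) and RPS10 (2067 bp), and just below it RPL3L (1902 bp) and RPSA (1880 bp).

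The regions reached farther than at other genes on both sides of the start, with more of their length downstream, within the genes. H3K4me3 covered the start base of 63 of 65 members (96.9%), against 50.3% of coding genes. Those not covered were RPL10L and RPL6, whose 5′-most listed start lies inside its span. The 5′ end of the RPL6 span itself lay in an H3K4me3 region (chr12:112418019-112420388). At those 63 starts it reached a median of 2103 bp downstream and 799 bp upstream, against 1299 and 485 bp at the 7947 coding genes with H3K4me3 over the start. Among genes of at most 10 kb the downstream reach was 2212 bp for 55 members and 1244.5 bp for 1576 coding genes. It passed 1500 bp at 57 of 63 members (90.5%), against 35.8% of those coding genes. The region reached farther downstream than upstream at 61 of the 63. RPL36AL (2705 bp upstream, 1814 bp downstream) and RPS29 (1968 bp upstream, 1116 bp downstream) were the exceptions, and their regions held an end of a neighbouring gene, MGAT2 and LRR1. RPL3 reached farthest downstream with 3349 bp, followed by RPL27A with 3293 bp and RPLP0 with 3179 bp.

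**Figure D2:**
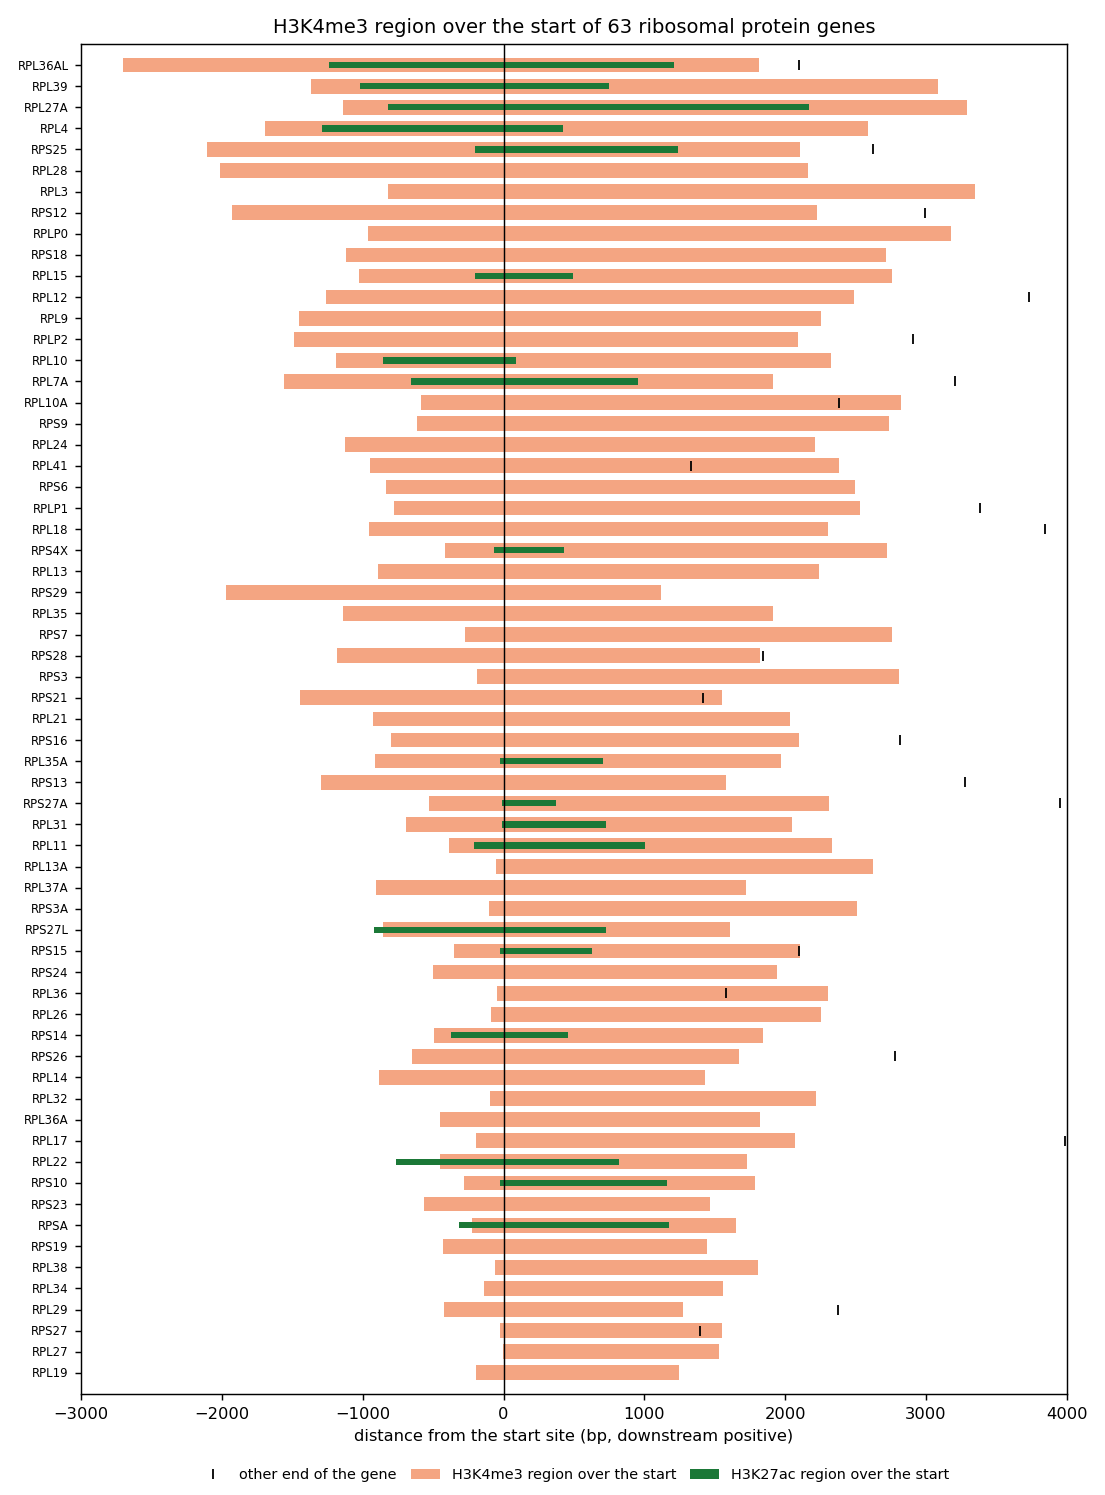
H3K4me3 region over the start of each of the 63 ribosomal protein genes that had one, drawn as distance from the 5′-most listed start in bp (downstream positive) and ordered by the width of the gene's widest region. Orange bars are H3K4me3, green bars the H3K27ac region over the start at the 19 genes that had one, and black ticks the other end of genes shorter than 4 kb. All bars but those of RPL36AL and RPS29 reach farther to the right of the start than to the left.

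H3K4me3 covered much of the length of these genes. The median share of the span under H3K4me3 was 48.3% for the 81 marked members, against 4.17% for coding genes. Among marked genes of at most 10 kb it was 51.9% for 70 members and 24.0% for coding genes. RPL10A, RPS27, RPS15, RPS21, RPS2, RPL36 and RPL41 were covered from end to end. At 2000 bp downstream of the start H3K4me3 was still found at 58.5% of members, against 18.0% of coding genes with H3K4me3 over the start, whereas at 500 bp upstream the shares were 64.6% and 59.4%. The summit of the strongest H3K4me3 peak lay downstream of the start at 59 of 63 members, at a median of 413 bp, close to the 377 bp of the other coding genes so marked.

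H3K27ac was narrower and mostly left the start base itself free. It lay within 1 kb of the start at 58 of 65 members (89.2%) but covered the start in 19 (29.2%), against 79.2% and 33.6% of coding genes with H3K4me3 over the start. It flanked the start on both sides without covering it in 15 members (23.1%, against 14.1%), lay only downstream in 21 (32.3%, against 26.2%) and only upstream in 3 (4.62%, against 5.32%). The 19 with H3K27ac over the start included RPL22, RPL11, RPS27A, RPSA, RPS14, RPS10, RPL7A, RPS4X and RPL10. The most frequent position was about 400 bp downstream, where 72.3% of members and 59.5% of those coding genes were covered.

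**Figure D3:**
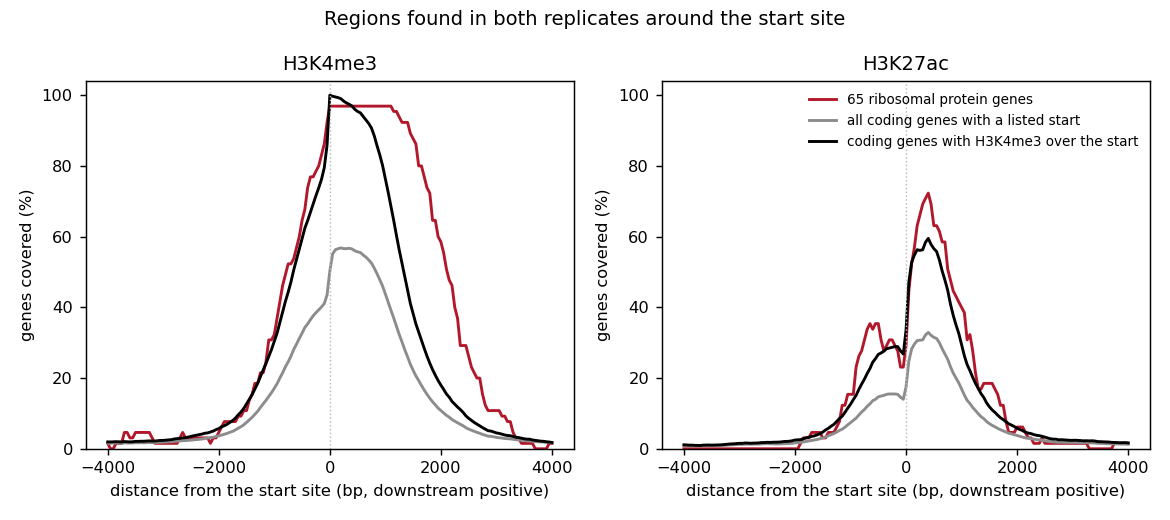
Share of genes (%) whose DNA at each distance from the start site (bp, steps of 50, downstream positive) lay in a region found in both replicates, for H3K4me3 on the left and H3K27ac on the right. Red lines are the 65 ribosomal protein genes with a listed start, grey lines all coding genes with one, and black lines the coding genes with H3K4me3 over the start. The red H3K4me3 line stays high to about 1500 bp downstream (87.7%), where the black line has come down to 38.2%, and both H3K27ac lines dip at the start.

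H3K4me3 enrichment was high but varied several-fold within the family. The median of the members' highest fold enrichment was 24.2 (mean of both libraries, 81 genes, range 7.67 to 50.6), against 15.9 for coding genes and 15.1 for short ones, and 68 of 81 stood above the coding median. By library the member median was 24.5 in replicate 1 and 22.7 in replicate 2. The 2 libraries ordered the members alike (Spearman rho 0.794 over 81 genes, a description since genes share libraries), and at the median member they differed by 10.01% of their mean.

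RPL11 had the highest value, 60.7 in replicate 1 and 40.5 in replicate 2. It encodes a large-subunit protein that, with RPL5, binds 5S rRNA and can hold the p53 regulator MDM2. The next were RPS10 (44.6 and 46.5), RPS3 (41.3 and 44.0), RPL7A (48.2 and 36.1) and RPL28 (41.1 and 42.5). Replicate 1 put RPL11 first and replicate 2 put RPS10 first, so the order of these 5 is not resolved, but in both libraries each lay far above the coding median of 15.9. The promoters of all 5 are among those printed above. The lowest were RPL39L (7.28 and 8.06), RPL3L (9.89 and 11.1), RPL34 (10.9 and 11.1), RPS23 (11.3 and 14.3) and RPLP0 (15.3 and 11.1). Both libraries put each of these 5 below the coding median of 15.9.

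**Figure D4:**
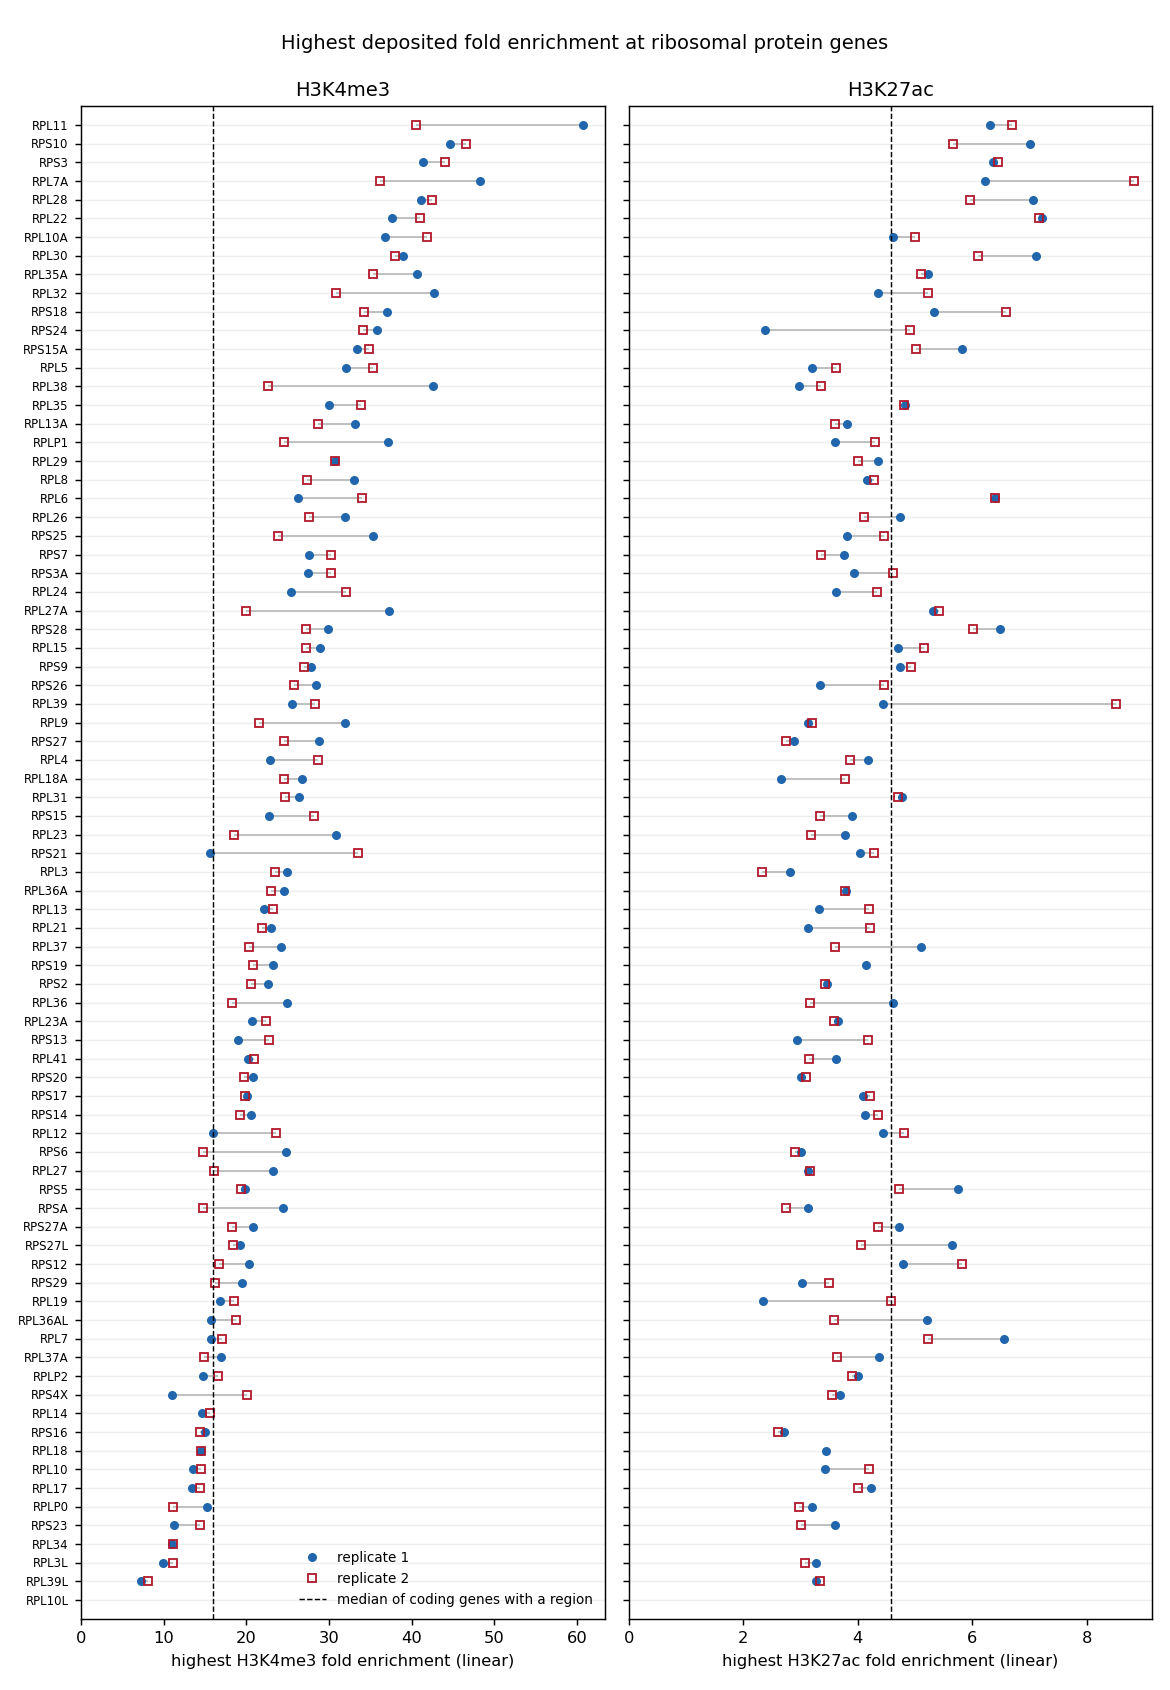
Highest deposited fold enrichment (linear) at 80 of the ribosomal protein genes for H3K4me3 on the left and H3K27ac on the right, ordered by the H3K4me3 mean. Blue dots are replicate 1, open red squares replicate 2, grey lines join the libraries of a gene, and dashed lines mark the median of coding genes with a region, 15.9 and 4.58. Most members lie right of the dashed line for H3K4me3 and left of it for H3K27ac.

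The subunits did not stand clearly apart. The median H3K4me3 fold enrichment was 25.7 for 43 genes of the 60S subunit and 22.05 for 31 of the 40S subunit, the 5 variant copies left out, with ranges of 11.0 to 50.6 and 12.8 to 45.6. Median widths were 2960 and 2898 bp, and H3K27ac medians 4.14 and 4.14. The 3 stalk genes, whose acidic proteins recruit translation factors, gave 15.7 at the median. RPLP1 read 37.2 and 24.5, RPLP2 14.7 and 16.6, and RPLP0 15.3 and 11.1. RPLP1 was therefore above both its partners in each library although the proteins work as 1 complex.

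Members known from blood disease and growth signalling spread over the range. RPL5, the partner of RPL11, read 32.1 and 35.3, and RPS19, the first gene linked to Diamond-Blackfan anaemia, 23.2 and 20.8. RPS14, lost in the 5q- syndrome, read 20.5 and 19.2. RPS6, the target of S6 kinase, read 24.8 and 14.7. RPL11 and RPL5 stood above RPS19, RPS14 and RPS6 in both libraries, while the 2 values of RPS6 spanned those of RPS19 and RPS14.

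Other much-studied members fell between. RPSA, the laminin-binding small-subunit protein, read 24.4 and 14.7. RPS27A, which is made as a fusion with ubiquitin, read 20.8 and 18.2. The X-linked RPS4X read 10.9 and 20.1, and the X-linked RPL10, a late-joining protein of the large subunit, 13.6 and 14.5. RPL22, a non-essential large-subunit protein, stood high with 37.7 and 41.1. RPL23, which like RPL11 can bind MDM2, read 30.9 and 18.5, and RPL29 read 30.7 in both libraries. The libraries were thus close at RPL29 and RPL10 and far apart at RPS4X and RPL23.

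H3K27ac was common in the family but not strong. The median of the members' highest fold enrichment was 4.07 (76 genes, range 2.57 to 7.52), against 4.58 for coding genes with a region and 4.44 for short ones, and 25 of 76 stood above the coding median. The median width was 782.5 bp, against 807 bp and 815 bp. By library the member median fold was 4.01 and 4.20, against 4.43 and 4.49 at coding genes. Of the members with H3K4me3, 93.8% also had H3K27ac, against 77.4% of coding genes, and the widest H3K27ac region was 29.0% as wide as the widest H3K4me3 region at the median, against 41.7%. A typical member thus placed at percentile 86.2 of coding genes for H3K4me3 width and 79.4 for its fold, but at 47.6 and 33.0 for H3K27ac. Of the 76 members, 50 (65.8%) had in each library some peak in the window past a −log10 q of 1.3, whether or not those peaks overlapped, against 77.8% of coding genes with a region. Past 5 the shares were 8 members (10.5%) and 15.3%.

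The most acetylated members were RPL7A (6.22 and 8.82), RPL22 (7.21 and 7.16), RPL30 (7.11 and 6.09), RPL28 (7.06 and 5.95) and RPL11 (6.31 and 6.69). RPL7A, RPL28 and RPL11 were also among the 5 highest for H3K4me3. The lowest with a region were RPL3 (2.81 and 2.33), RPS16 (2.71 and 2.60), RPS27 (2.89 and 2.75), RPSA (3.14 and 2.74) and RPS6 (3.004 and 2.91). The highest and lowest sets did not overlap in either library. Both sets were picked by the mean of these same libraries, which favours such a separation. Among other much-studied members RPL5 read 3.20 and 3.61, RPS14 4.12 and 4.35, RPS27A 4.72 and 4.36, RPL29 4.34 and 3.997, RPL23 3.78 and 3.17, RPL10 3.42 and 4.20, and RPS4X 3.69 and 3.55. Among the stalk genes, RPLP1 (3.60 and 4.29) and RPLP2 (3.998 and 3.89) overlapped, and RPLP0 (3.19 and 2.97) lay below both in each library.

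No H3K27ac region shared by both replicates was found at 6 members. RPL14 and RPL34, both of the large subunit, had no H3K27ac peak in either library while carrying H3K4me3 of 14.6 and 15.6 and of 10.9 and 11.1. RPS19 had an H3K27ac peak in replicate 1 alone (4.14), as had RPL18 (3.44). RPL10L had none. RPS19 lacked a shared H3K27ac region although its H3K4me3 values of 23.2 and 20.8 lay above the coding median, so the absence was not confined to members with little H3K4me3.

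Across members the marks rose together in part. Over the 76 genes with both, H3K4me3 and H3K27ac fold enrichment gave Spearman rho 0.506 and Pearson r 0.618, a description without a test, since all points share the same 4 libraries. In the 27 members with the highest H3K4me3 fold, all had H3K27ac, with a median fold of 4.80, whereas the middle 27 and the lowest 27 gave 3.76 and 3.88, with H3K27ac at 25 and 24 genes. RPL3 (24.9 and 23.5 for H3K4me3) and RPL7 (15.7 and 17.0) stood off this relation, RPL3 with the least H3K27ac of the family and RPL7 with 6.54 and 5.23. H3K4me3 fold and width were nearly unrelated (rho 0.098 over 81 genes).

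**Figure D5:**
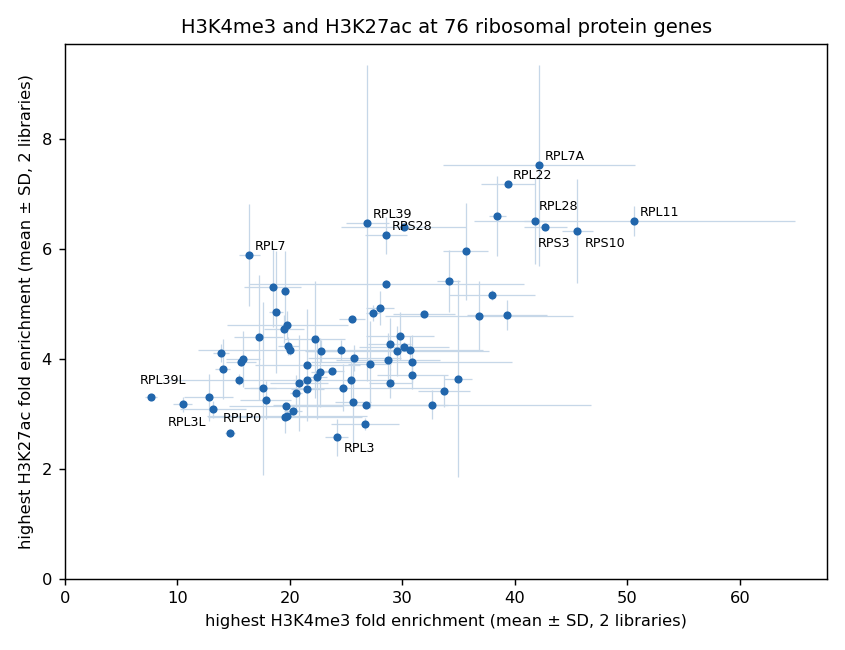
Highest H3K4me3 fold enrichment (horizontal) against highest H3K27ac fold enrichment (vertical), both linear, at the 76 ribosomal protein genes with regions of both marks. Points are means and bars are SD over 2 libraries. Members such as RPL7A, RPL22 and RPL11 lie at the upper right, while RPL3 lies low at a mid-range H3K4me3 value and RPL7 high at a low one.

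Most of the acetylation found in the windows of these genes lay inside H3K4me3. Of 132 H3K27ac regions at members, 129 (97.7%) met an H3K4me3 region and 112 (84.8%) lay wholly inside one, against 54.8% of all 24239 H3K27ac regions that met H3K4me3. RPL27A had the most, 5 regions, the widest of 2991 bp. At RPS27L, RPL22 and RPSA the H3K27ac region over the start reached farther upstream than H3K4me3 did.

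H3K4me1 was almost absent. Its 2 shared regions lay away from the promoters: at RPL22 it was 638 bp wide (chr1:6183714-6184351, fold 3.70 and 3.32), beyond the 3′ end of the gene, and at RPS15A 230 bp wide (chr16:18786565-18786794, 3.52 and 3.58), inside the gene. Neither met H3K4me3 or H3K27ac. RPS4X had a peak in replicate 1 alone, RPL11 and RPS24 in replicate 2 alone. No H3K4me1 region lay within 1 kb of any of the 65 listed starts, against 2.25% of coding genes with H3K4me3 over the start. None of the member peaks reached a −log10 q of 1.3 in both libraries, so both regions were weak by that limit. Some peak past it in each library, overlapping or not, was found at 34.1% of coding genes with a region and 17.8% of short ones.

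BRG1 peaks common to both replicates were found at RPS3, RPS27L, RPL3L and RPL39, with regions of 277 to 368 bp. The mean fold enrichment of RPL39 (4.54) lay above the median of 3.74 over all BRG1 regions, and those of RPS27L (3.67), RPL3L (3.55) and RPS3 (3.38) below it. At RPL39, an X-linked gene for a small large-subunit protein, BRG1 read 5.44 and 3.64 (chrX:119791710-119792077), with summits 208 and 222 bp upstream of the start, inside H3K4me3 and H3K27ac. An NRF2 peak of replicate 1 lay on the same DNA (6.22, −log10 q 4.31), with its summit also 208 bp upstream, and replicate 2 had none. At RPS3, which encodes a protein at the mRNA entry that also acts in DNA repair, BRG1 read 2.89 and 3.86 (chr11:75400208-75400484), 756 and 811 bp downstream of the start, inside both marks. At the RPS27L gene, a p53-responsive variant copy, BRG1 read 3.70 and 3.65 (chr15:63150289-63150566), about 7 kb into the gene and outside all 3 marks, and again with an NRF2 peak of replicate 1 (5.42, −log10 q 2.08). RPS27L also had 2 further BRG1 peaks in replicate 2, near its start. Of these 4 BRG1 regions, 1 reached a −log10 q of 1.3 in 1 library (RPL39, replicate 1, 1.70), and none did so in both. Most BRG1 peaks of the lists also fell short of that limit. It was reached by 258 of 3213 peaks in replicate 1 and 1058 of 6610 in replicate 2.

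Peaks of 1 BRG1 library were found at RPL4 (replicate 1, 3.26) and, in replicate 2, at RPL11 (3.22), RPS24 (2.09), RPS15A (2.68) and RPL28 (3.15). Replicate 2 is the longer list, and it placed BRG1 at 8 members (9.76%, against 11.9% of coding genes), while replicate 1 placed it at 5 (6.10%, against 6.44%). Both shares were close to or below those of coding genes. All of these single-library peaks met H3K4me3. NRF2 had peaks at 3 members in replicate 1 (3.66%, against 3.26% of coding genes), RPS27L, RPL3L and RPL39. The peak at RPL3L had a −log10 q of 0 and met MSRB1. These members also had BRG1 in both replicates, but the share of other genes with an NRF2 peak that had BRG1 was not counted. Replicate 2, whose list was shorter, had NRF2 peaks at no member, against 1.91% of coding genes.

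SMARCC1 had 1 shared region in the family, at RPL11 (chr1:23691824-23692090, fold 2.89 and 3.0), inside both marks and beginning within 50 bp of the 5′-most listed start. The BRG1 peak of replicate 2 at RPL11 began at the same base, and replicate 1 had no BRG1 peak there. RPL11 also had the highest mean H3K4me3 of the members, though in replicate 2 it stood below RPS10, RPS3, RPL28, RPL10A and RPL22. The −log10 q of both SMARCC1 peaks was 0.

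Of the variant copies, RPL10L, RPL39L and RPL3L differed from the family core in H3K4me3. RPL36AL and RPS27L lay within its range of H3K4me3 and H3K27ac fold enrichment. RPL10L, a short retrogene known from testis, had no region of any target, and its printed promoter has no tract. RPL39L, a copy also known from testis, had the least H3K4me3 of the marked members, in a region of 1228 bp (chr3:187138560-187139787), with H3K27ac of 3.27 and 3.34. RPL3L, the muscle copy of RPL3, was counted as marked only through its 1 kb margin. Its H3K4me3 region (chr16:1941926-1943827), its H3K27ac region (chr16:1943119-1943689) and its BRG1 region (chr16:1943184-1943519, 2.68 and 4.43) all ended before the gene's span at 1943974 and lay over the end of MSRB1 (chr16:1938229-1943199). H3K4me3 therefore covered none of the RPL3L span. RPL36AL, which shares a wide region with MGAT2, read 15.7 and 18.8 for H3K4me3 and 5.20 and 3.58 for H3K27ac, and RPS27L read 19.2 and 18.3 and 5.64 and 4.06. H3K4me3 covered the listed starts of RPL36AL and RPS27L and not that of RPL10L, whereas RPL39L and RPL3L have no listed start. No testis or muscle marker gene carried H3K4me3 in these cells.

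The genes host small nucleolar RNAs, which guide modification of rRNA. A snoRNA gene lay in the span of 29 of 82 members (35.4%), 60 snoRNA genes in all, against 2.64% of coding genes. The hosts had a median H3K4me3 width of 3226 bp and fold of 22.8, the 52 other marked members 2827 bp and 24.96. RPL3, RPL4, RPL7A, RPL13A and RPL23A held 4 snoRNA genes each.

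Genes that work with the ribosome carried H3K4me3 as regularly. The ribosomal proteins outside the symbol rule (such as FAU and RACK1) had it in 6 of 6, other TOP genes of translation in 14 of 14, ribosome biogenesis genes in 24 of 24, genes of RNA polymerase I and its factors in 14 of 14, other initiation factors in 15 of 16 and factors known at ribosomal protein promoters in 8 of 9. The exceptions were EIF3C and SP1. Median widths were 2518, 2660.5, 2464, 2538, 2592 and 3013 bp in that order, so widths above the coding median of 1802 bp were not particular to the ribosomal protein genes. H3K27ac was present in 5, 13, 21, 10, 11 and 7 genes of these lists. BRG1 was shared by both replicates at NOP58 alone of these lists and SMARCC1 at FBL alone, both factors of snoRNA-guided rRNA modification, and NRF2 at none. In 1 library only, BRG1 peaks lay at TAF1B (replicate 1) and at EEF1A1, EIF3H, UBTF, TAF1D, EIF4E, EIF4G1, EIF1 and SP1 (replicate 2), NRF2 peaks at POLR1B (replicate 1) and YY1 (replicate 2), and a SMARCC1 peak at LARP1 (replicate 1).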

How the data were processed

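Peak lists of 12 CUT&RUN libraries, 2 for each of 6 targets, were used as deposited, and an IgG library was not used here. The tools listed for these files are, per the submitters' processing notes, MACS2 2.2.7.1, Picard 2.23.9, Bowtie2 2.4.1 and SAMtools 1.9, on GRCh38, with no settings. Whether peaks were called against IgG is not given in the sources used here. The lists are per library, so replicates had not been pooled. The authors deposited for each peak a fold enrichment at the summit (a linear ratio), a −log10 p, a −log10 q and a score, which were not rescaled here. The −log10 q served only as a threshold in alternatives, the −log10 p and the deposited score only to learn what the lists hold. Peak lists carry no read totals, so depth and its precision are unknown, and no test was made.

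From these, overlapping peaks of both replicates were merged, and a region counted where it held at least 1 peak of each. A gene's window was its RefSeq GRCh38.p14 span plus 1 kb at both ends, with an overlap of at least 1 bp, and a region's whole width was used. Fold enrichment is the mean over both libraries of the highest value in the window, quoted only with a region. Starts are the 5′-most in RefSeq's promoter table, which gave one for 65 of 82 members and 15811 of 19970 coding genes.

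The members, gene lists and naming rule were chosen with earlier results of these data known. Named were members with a factor peak, without H3K4me3 or H3K27ac or with H3K4me1, the 5 widest and 5 narrowest by H3K4me3, the 5 highest and 5 lowest by each mark's fold, 20 much-studied members, and from other lists those without H3K4me3 or with a factor peak. Some genes that the rule names are counted but not reported here by name. Other genes that illustrate a value were named after their values were seen. The overlap code was tested on simulated intervals. Python 3.11.15, NumPy 2.4.6, pandas 2.3.3 and matplotlib 3.10.9 were used.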

Additional observations from a re-analysis of the deposited data

How the results depend on the processing

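Alternatives covered the window (span alone, 5 kb, or 1 kb around the start), peaks of either replicate, −log10 q of at least 1.3 or 5, summits inside the window, peaks joined over gaps of up to 500 bp, the 5 variant copies left out, and each library left out. The H3K4me3 count stayed within 1.5 times of 81 in all 10 alternatives. No paired analysis was possible because the results come from no test and each is made from both replicates of 1 target.

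The H3K27ac count depended on the threshold: 76 members became 48 at −log10 q 1.3 and 8 at 5. Coding genes fell too. With some peak past the limit in each library, overlapping or not, 39.0% of them remained at 1.3 and 7.68% at 5, against 61.0% and 9.76% of members. The H3K27ac median width of 782.5 bp became 706 bp (71 genes) in the span alone, 828 bp (77 genes) with 5 kb, 1197 bp (8 genes) at −log10 q 5 and 1292 bp with joined peaks, and 617 to 664 bp with a library left out. Its median fold of 4.07 became 3.81, 4.35 and 6.504 with the span alone, 5 kb and −log10 q 5, and 4.01 to 4.20 with a library left out. The H3K4me3 median width of 2960 bp became 2880 bp at −log10 q 5, 3054 bp with joined peaks and 2675 to 2729 bp with a library left out, and its fold of 24.2 became 22.7 to 24.5.

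H3K4me1 regions at 2 members became 1 in the span alone or by summits, 8 with 5 kb, 5 with either replicate, 0 within 1 kb of the start and at both −log10 q limits, and 3 to 4 with a library left out. Their median width of 434 bp became 230 bp in the span alone (1 gene), 617 bp with 5 kb, 246 bp with either replicate, 923 bp with joined peaks and 230 to 245.5 bp with a library left out, and their fold of 3.58 became 3.18 with either replicate and 3.25 to 3.70 with a library left out. BRG1 regions at 4 members became 2 in the span alone, within 1 kb of the start or without the variant copies, 9 with either replicate, 0 at both −log10 q limits, and 5 to 8 with a library left out (8 without replicate 1). NRF2 went from 0 to 3 with either replicate, and to 0 to 3 with a library left out (3 without replicate 2). SMARCC1 went from 1 to 0 at both −log10 q limits. Coding genes were not recounted under these window, summit and either-replicate settings, so those member counts have no background share. In single libraries, H3K4me1 peaks lay at 3 members (3.66%, against 32.9% of coding genes) in replicate 1. Replicate 2 had them at 4 (4.88%, against 31.2%).

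The causes were not tested, other than that looser settings admit more peaks by construction. The limits on depth fall on the absences: at unknown depth, the lack of a factor peak at a member says only that none was listed.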
